A study of Mus musculus with 8 samples.

Results

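Matricellular proteins are secreted into the extracellular matrix, where they act mainly on cells rather than as load-bearing fibers, and the provisional matrix is the temporary scaffold laid down in a wound before scar collagen. In the injured heart, fibronectin and the hyaluronan-binding proteoglycan versican belong to this scaffold, while thrombospondin 1, tenascin C, periostin, osteopontin, SPARC and the CCN proteins bind integrins, growth factors or collagen and are known to be low in resting adult muscle or to be made anew after infarction. The 9 genes described here were picked by symbol from the 27998 genes of the matrices, and all 9 were found: Fn1, Vcan, Thbs1, Tnc, Postn, Spp1, Sparc, Cyr61 and Ctgf. None of them was used to define a cell class.

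Left ventricular cells of male C57BL/6 mice aged 10 to 12 weeks were profiled by droplet-based single-cell RNA sequencing 6 h after sham surgery or after 30 min of left coronary artery ligation followed by reperfusion (IR). The sample records list 4 samples per group, each pooled from 3 hearts, and the titles of the sham samples read 0 h. The deposited matrices hold 1 pooled table of unique molecular identifiers (UMIs, counted transcript molecules) per group and no map from cells to samples, so each group was 1 library and nothing said of IR against sham rests on replicates. All intervals given are 95% intervals that cover counting error only, and "higher" or "lower" describes these 2 libraries.

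The sham library held 58653308 UMIs in 11620 barcodes and the IR library 75033226 UMIs in 8539 barcodes. After filtering, 11377 and 8260 cells were kept, of which 84.4% and 86.0% fell into a class by marker genes. The classes compared were fibroblast-like cells (3429 in sham and 1469 in IR), pericyte-like cells (573 and 103), smooth-muscle-like cells (214 and 75), resident-macrophage-like cells (2641 and 902), monocyte-like cells (360 and 1004) and neutrophil-like cells (237 and 2447). Their leading genes matched their names. Cells of the IR library were deeper, with median UMIs of 13747 against 5207 in fibroblast-like cells and 12523 against 6589 in monocyte-like cells. Levels were ordered over the 10 classes with at least 50 cells in both libraries; smaller classes are left out of every order. Levels are CPM, a gene's UMIs divided by all UMIs of the class and scaled to 1000000. B-cell-like cells (1205 and 685), which are not a known source of most of these proteins, served as a gauge of the level that free RNA in droplets can give. The gauge has a limit, since some of its sham levels rested largely on a single cell. Such a cell held 62.9% of the Fn1, 83.3% of the Spp1 and 45.5% of the Ctgf UMIs. In IR the largest such share was 35.3%, for Fn1.

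In GRCm38 (mm10), with the GENCODE M21 annotation, all 9 are protein-coding genes. Fn1 lies at chr1:71585520-71653200 and Vcan at chr13:89655312-89742509, both on the minus strand. Thbs1 lies at chr2:118111876-118127133 on the plus strand, Tnc at chr4:63959785-64047015 on the minus strand and Postn at chr3:54361109-54391037 on the plus strand. Spp1 lies at chr5:104435118-104441050 on the plus strand and Sparc at chr11:55394500-55423183 on the minus strand. Cyr61, named Ccn1 in that annotation, lies at chr3:145646976-145649981 on the minus strand, and Ctgf, named Ccn2, at chr10:24595442-24598683 on the plus strand.

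RefSeq promoter windows (GRCm38.p6, 250 bases before to 50 after a gene's start) were matched for 6 of the 9 genes, in 9 windows, and Thbs1, Fn1 and Ctgf had no entry. Both strands of each window were searched for 4 motifs. The TATA box, searched as TATAAA, was found in 13.6% of all 32851 windows. The AP-1 motif, searched as TGANTCA, was found in 7.81% of them. The motif of TEAD, the DNA-binding partner of YAP, was searched as GGAATG and found in 14.7%. The CArG box of serum response factor was found in 1.63%. Matches were found for 4 genes, and for each of them the window nearest its annotated start is printed here. Capitals mark the matches, which do not overlap each other. The windows are chr3:145649936-145650235 (minus strand) for Cyr61, chr3:54360857-54361156 (plus strand) for Postn, chr4:64046966-64047265 (minus strand) for Tnc and chr5:104434861-104435160 (plus strand) for Spp1.
Cyr61: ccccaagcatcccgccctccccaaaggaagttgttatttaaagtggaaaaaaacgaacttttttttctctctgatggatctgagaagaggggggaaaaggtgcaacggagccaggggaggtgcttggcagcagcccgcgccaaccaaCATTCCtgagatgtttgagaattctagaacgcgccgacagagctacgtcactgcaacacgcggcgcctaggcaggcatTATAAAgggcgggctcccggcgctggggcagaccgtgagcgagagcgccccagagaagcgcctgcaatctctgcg
Postn: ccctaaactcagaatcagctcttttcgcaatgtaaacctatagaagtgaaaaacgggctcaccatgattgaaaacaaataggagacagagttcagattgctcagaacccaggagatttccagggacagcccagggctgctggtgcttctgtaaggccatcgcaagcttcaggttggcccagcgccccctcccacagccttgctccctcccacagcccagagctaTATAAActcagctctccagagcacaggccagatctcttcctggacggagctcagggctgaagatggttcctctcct
Tnc: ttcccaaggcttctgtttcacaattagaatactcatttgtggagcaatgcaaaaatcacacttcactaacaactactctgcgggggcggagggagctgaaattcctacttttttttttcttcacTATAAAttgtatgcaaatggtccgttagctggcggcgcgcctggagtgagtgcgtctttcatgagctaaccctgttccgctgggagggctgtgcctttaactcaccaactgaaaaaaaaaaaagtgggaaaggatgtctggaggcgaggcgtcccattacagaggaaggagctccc
Spp1: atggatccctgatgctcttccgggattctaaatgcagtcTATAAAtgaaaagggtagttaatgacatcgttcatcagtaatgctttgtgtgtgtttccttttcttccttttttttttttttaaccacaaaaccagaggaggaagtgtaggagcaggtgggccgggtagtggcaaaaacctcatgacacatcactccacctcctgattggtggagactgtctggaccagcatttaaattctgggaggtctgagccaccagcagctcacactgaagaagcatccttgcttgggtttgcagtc
Cyr61 and Postn held TATAAA close to the start, beginning at -25 and -26 relative to the first transcribed base. In the Tnc and Spp1 windows the letters began at -126 and -211. The Cyr61 window also held GGAATG on the opposite strand, printed as CATTCC and beginning at -103. The windows of Vcan and Sparc held none of these letters. The start of the only Sparc window lay 3103 bases from the annotated start of the gene, so its annotated promoter was not searched. A match is a description of the letters and not of a bound site.

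In fibroblast-like cells, 6 of 9 genes were at least 2-fold higher in IR (Vcan, Thbs1, Tnc, Postn, Spp1 and Ctgf), none was at least 2-fold lower, and the remaining 3 (Fn1, Sparc and Cyr61) differed by less than 2-fold. The count is 5 with the B-cell-like CPM subtracted, since Spp1 lay below the B-cell-like level in IR. Of all 8475 genes tested in that class, 10.5% were at least 2-fold higher and 10.9% at least 2-fold lower. The median log2 ratio of IR to sham was 2.09 over the 9 genes and 0.02 over all genes. In pericyte-like cells 2 of the 7 genes tested were higher (Thbs1 and Spp1) and none lower, against 8.34% higher and 9.7% lower of 7971 genes. In smooth-muscle-like cells 2 of 6 were higher (Fn1 and Ctgf) and none lower, against 10.2% and 9.06% of 6972 genes. The mural classes were small in IR, and the smooth-muscle count was 0 to 4 under other settings. Summed smooth muscle markers in smooth-muscle-like cells were 58478 CPM in sham and 27268 CPM in IR, pericyte markers 3554 CPM and 4979 CPM, and neutrophil markers 73.4 CPM and 484 CPM (all 10 of each list found, except 6 neutrophil markers in sham). Their part in the smooth-muscle-like ratios was not tested.

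In monocyte-like cells 6 of 7 genes tested were at least 2-fold higher in IR (Fn1, Vcan, Thbs1, Spp1, Cyr61 and Ctgf) and none lower, against 9.41% higher and 15.7% lower of 7145 genes. The monocyte-like count was 5 with the limit of 2500 genes, either marker gate, thinning or the mean of cells. It was 4 with the B-cell-like CPM subtracted and 8 without the filter on low counts. In neutrophil-like cells 5 of 7 were higher (Vcan, Thbs1, Spp1, Cyr61 and Ctgf) and 1 lower (Fn1), against 14.7% and 18.3% of 5470 genes. The neutrophil-like count was 4 with thinning or the mean of cells. It was 6 with the stricter marker gate, centering on the median gene or the B-cell-like CPM subtracted. After thinning, the IR shares of neutrophil-like cells with a UMI of Vcan, Cyr61 or Ctgf had intervals that overlap those of B-cell-like cells. The intervals of Thbs1 and Spp1 did not. In resident-macrophage-like cells 5 of 7 were higher (Fn1, Vcan, Thbs1, Spp1 and Ctgf) and none lower, against 9.94% and 5.71% of 7525 genes. That count was 3 with the stricter marker gate or the B-cell-like CPM subtracted, and after thinning to 1000 UMIs per cell the shares of resident-macrophage-like cells in IR with a UMI of these 5 genes all had intervals that overlap those of B-cell-like cells. By CPM, their IR levels of Fn1 (187, 178 to 196), Spp1 (194, 186 to 204) and Thbs1 (239) lay above B-cell-like cells. These had 25.7 CPM (19.9 to 32.6) of Fn1 and of Spp1, and 66.1 CPM of Thbs1. For Vcan the intervals overlapped, 11.3 to 16.2 against 4.91 to 12.1. The part of free RNA in these levels was not tested. The median log2 ratios of the genes tested were 2.90, 2.48 and 2.08 in monocyte-like, neutrophil-like and resident-macrophage-like cells. Those of all genes were -0.19, -0.19 and 0.16. Tnc and Postn were too low to be tested in any myeloid class. The B-cell-like level of Ctgf in IR was 18.1 CPM, above its 15.0 CPM in resident-macrophage-like cells.

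**Figure D1:**
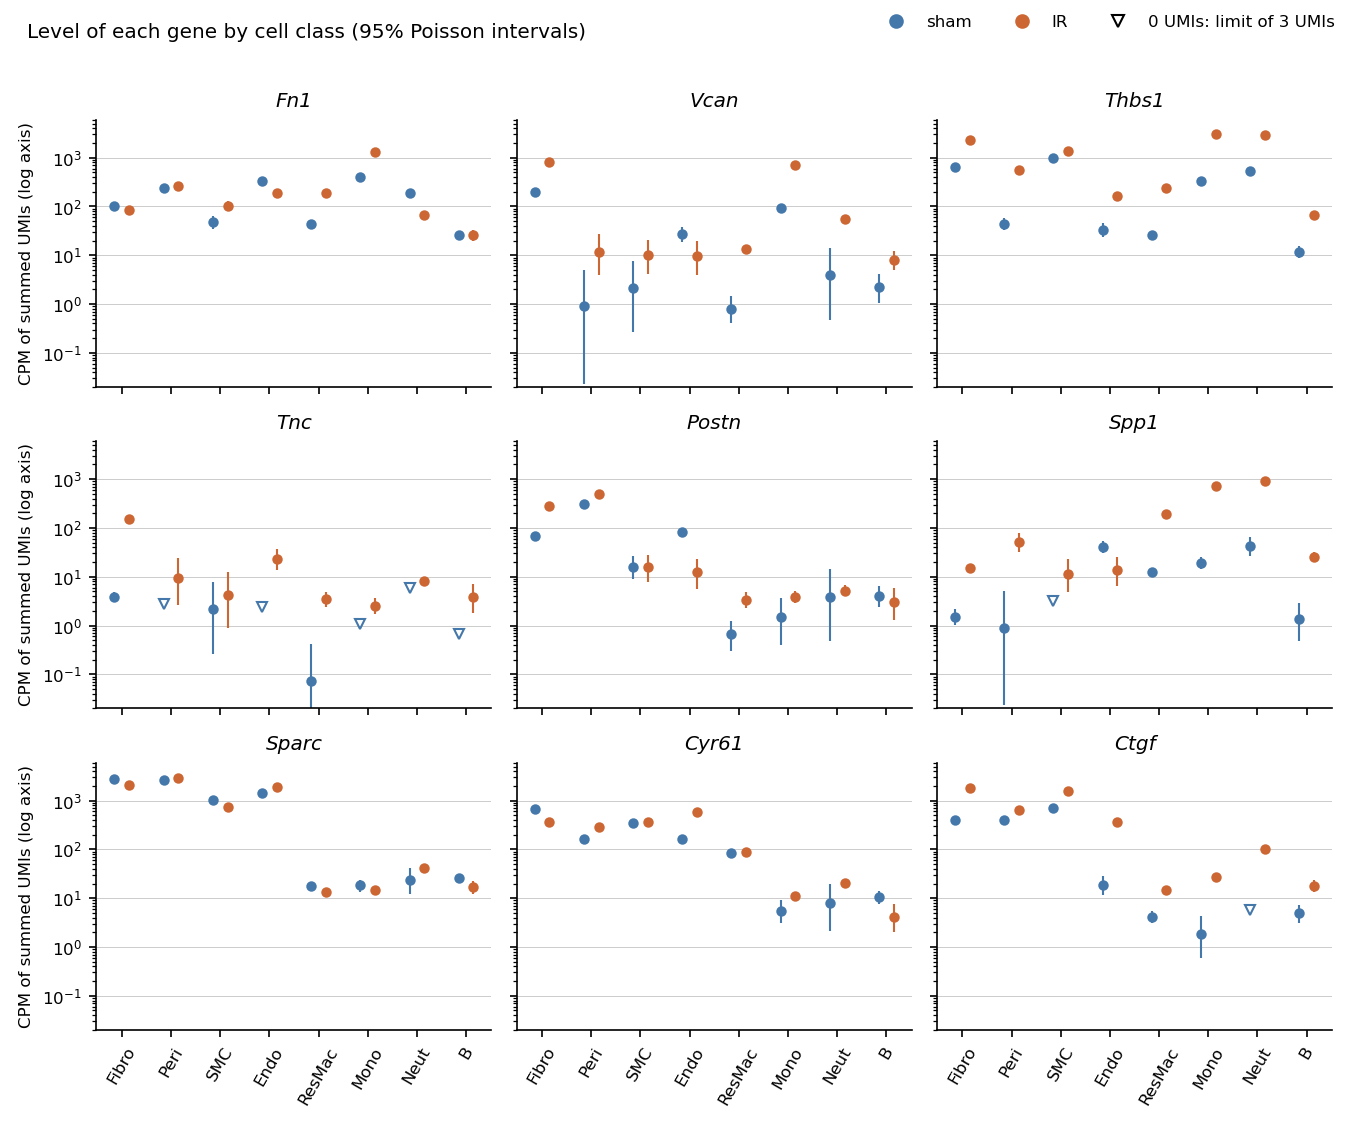
CPM of summed UMIs (log axis) of each gene in 8 cell classes of the sham and IR libraries, with 95% Poisson intervals; open triangles mark 0 UMIs and stand at 3 UMIs. Sparc, Cyr61 and Ctgf sat highest in the fibroblast-like, mural and endothelial-like classes, whereas Thbs1 and Spp1 in IR were highest in the neutrophil-like and monocyte-like classes.

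Fibronectin (Fn1) anchors cells through integrins and is a main component of the early wound matrix. Its level in monocyte-like cells was 409 CPM (385 to 433) in sham and 1293 CPM (1273 to 1313) in IR, a log2 ratio of 1.66 (1.57 to 1.75), and this class ranked first in both libraries. In fibroblast-like cells it was 105 CPM in sham against 85.9 CPM in IR, for a log2 ratio of -0.28 (-0.38 to -0.19). The fibroblast-like level was 1.22-fold lower in IR while the monocyte-like level was 3.16-fold higher. In IR, 887 of 1004 monocyte-like cells held an Fn1 UMI and no cell held more than 1.61% of the UMIs. When every cell was thinned to 1000 UMIs, 57.4% of monocyte-like cells in IR (54.2 to 60.5) and 15.7% in sham (12.1 to 19.9) had an Fn1 UMI, against 1.50% and 0.252% of B-cell-like cells.

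Fn1 in the other myeloid classes came from few cells. Resident-macrophage-like cells had 44.2 CPM in sham and 187 CPM in IR, but in IR 111 of 902 cells held a UMI and 1 cell held 19.2% of them. After thinning, 2.71% of these cells (1.74 to 4.00) had an Fn1 UMI, an interval that overlaps that of B-cell-like cells (0.722 to 2.74). Neutrophil-like cells had 188 CPM in sham and 68.1 CPM in IR, and the sham level rested on 96 UMIs in 5 cells, of which 1 cell held 74.0%. The log2 ratio of -1.46 in neutrophil-like cells changed sign under 3 of the alternative settings, and no direction is read from it. Endothelial-like cells ranked second in sham, at 335 CPM (304 to 369), and had 192 CPM (161 to 226) in IR. In sham, 98 of 263 of them held an Fn1 UMI and 1 cell held 17.3% of the UMIs. In pericyte-like cells Fn1 was 238 CPM and 267 CPM, with an interval of the log2 ratio from -0.17 to 0.49. In smooth-muscle-like cells it was 47.5 CPM and 102 CPM, from 44 and 71 UMIs.

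Cells left without a class held much of the sham Fn1. Among the kept sham cells, 551 carried both resident macrophage and monocyte markers and were left unclassed; their Fn1 level was 576 CPM (551 to 603), above that of monocyte-like cells. They held 23.3% of all Fn1 UMIs in sham. In IR 101 such cells had 1075 CPM and held 5.59%. Monocyte-like cells held 13.8% of Fn1 UMIs in sham and 59.1% in IR, and fibroblast-like cells 24.5% and 6.94%. The shares depend on the number of cells in each class as well as on the level per cell.

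Versican (Vcan) is a large chondroitin sulfate proteoglycan that, with hyaluronan, loosens the matrix and retains leukocytes. In fibroblast-like cells it was 195 CPM (189 to 201) in sham and 831 CPM (819 to 843) in IR, 4.26-fold higher. In monocyte-like cells it was 93.3 CPM (82.2 to 106) and 699 CPM (684 to 713), 7.48-fold higher. These classes were thus the highest in both libraries, in that order. After thinning, a Vcan UMI was found in 15.4% and 45.7% of fibroblast-like cells and in 5.32% and 43.1% of monocyte-like cells, and in 0.252% and 0.601% of B-cell-like cells. Neutrophil-like cells held 2 UMIs in sham and 692 in IR (56.5 CPM), a log2 ratio of 3.85 with an interval from 1.99 to 6.90, and their thinned share in IR of 1.46% (1.01 to 2.04) overlapped that of B-cell-like cells (0.164 to 1.53). In resident-macrophage-like cells the level was 0.807 CPM and 13.6 CPM, and the mural classes held 1 to 7 UMIs in each library. Fibroblast-like cells held 82.8% of Vcan UMIs in sham and 54.7% in IR, and monocyte-like cells 5.70% and 26.0%.

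Thrombospondin 1 (Thbs1) binds CD36 and CD47, restrains vessel growth and can activate latent TGF-beta; platelets also carry it. Among classes of at least 50 cells, smooth-muscle-like cells were highest in sham, at 986 CPM (923 to 1052), followed by fibroblast-like cells at 639 CPM and neutrophil-like cells at 530 CPM (469 to 597). The 6 platelet-like cells of sham had 4036 CPM (2586 to 6006), from 24 UMIs. The order differed in IR. Monocyte-like cells were then highest at 3085 CPM (3054 to 3116), followed by neutrophil-like cells at 2953 CPM (2922 to 2983), fibroblast-like cells at 2321 CPM and smooth-muscle-like cells at 1359.9 CPM. The log2 ratios were 3.19 (3.10 to 3.29) in monocyte-like cells, 2.48 (2.31 to 2.66) in neutrophil-like cells and 1.86 (1.83 to 1.89) in fibroblast-like cells. The smooth-muscle-like ratio of 0.46 (0.33 to 0.60) was below 2-fold, but it was 1.03 with a limit of 2500 genes per cell, 1.11 with the mean of cells and 1.22 with thinning, and -0.63 with a mitochondrial limit of 10%.

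Pericyte-like cells, which wrap capillaries, had 44.4 CPM of Thbs1 in sham and 562 CPM in IR, a log2 ratio of 3.66 (3.21 to 4.14) from 49 and 236 UMIs. Their sham level was far below that of smooth-muscle-like cells. In IR, 48 of 103 pericyte-like cells held a UMI. Endothelial-like cells had 33.4 CPM and 166 CPM, but 1 IR cell held 52.1% of the UMIs. Resident-macrophage-like cells had 25.5 CPM and 239 CPM, with 25.0% of the IR UMIs in 1 cell. After thinning, 5.86% of resident-macrophage-like cells in IR had a Thbs1 UMI, as did 5.86% of B-cell-like cells. By CPM their IR level of 239 lay above the 66.1 CPM (56.7 to 76.7) of B-cell-like cells. The part of free RNA in it was not tested. The shares in monocyte-like and neutrophil-like cells in IR were 67.1% and 57.4%.

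**Figure D2:**
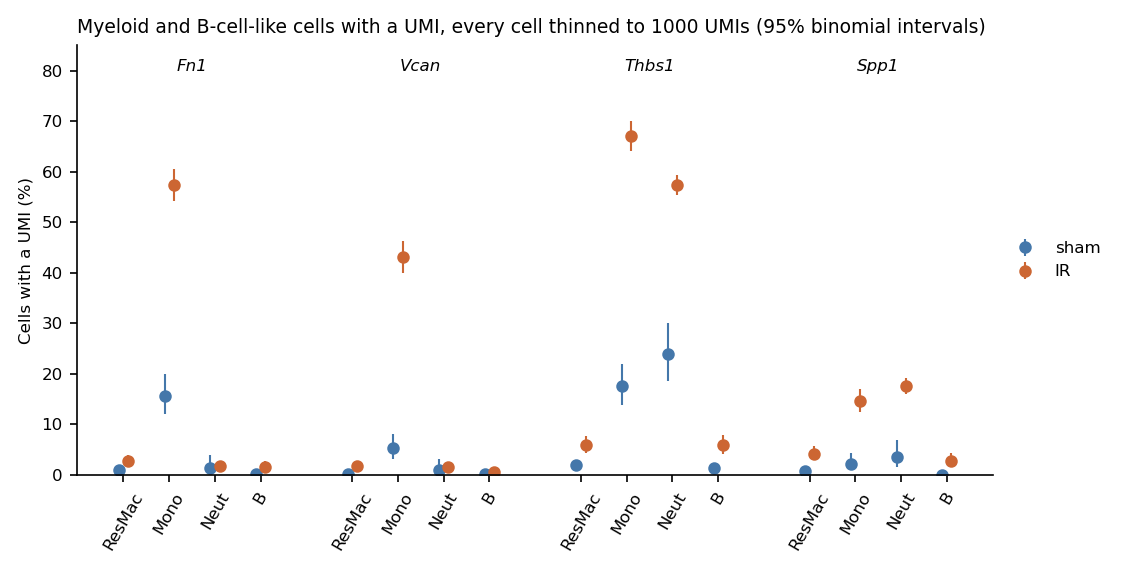
Share of cells (%) with at least 1 UMI of Fn1, Vcan, Thbs1 or Spp1 in resident-macrophage-like (ResMac), monocyte-like (Mono), neutrophil-like (Neut) and B-cell-like (B) cells after thinning each cell to 1000 UMIs, with exact binomial 95% intervals. Monocyte-like cells in IR reached 57.4% for Fn1 and 67.1% for Thbs1, while resident-macrophage-like cells stayed at or below 5.86% for all 4 genes.

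Fibroblast-like cells held 69.6% of all Thbs1 UMIs in sham and 31.7% in IR. Monocyte-like cells went from 5.28% to 23.9% and neutrophil-like cells from 1.55% to 22.4%, beside their larger numbers of cells in IR. Over the whole library Thbs1 was 299 CPM in sham and 2167 CPM in IR. Summed platelet markers stood beside these levels at 3.29 CPM in sham and 91.3 CPM in IR in monocyte-like cells (5 and 8 of 10 markers found), at 9.78 CPM and 27.9 CPM in neutrophil-like cells (3 and 10 of 10) and at 11.1 CPM and 159 CPM in resident-macrophage-like cells (7 and 7 of 10). In fibroblast-like cells they were at 27.7 CPM and 58.2 CPM (10 and 10 of 10). Their part in the Thbs1 levels was not tested.

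Tenascin C (Tnc) is an anti-adhesive glycoprotein typical of developing and wounded tissue. It was nearly absent from sham, with 87 UMIs in the whole library, and reached 4759 UMIs in IR. In fibroblast-like cells the level was 3.85 CPM (3.02 to 4.84) in sham and 153 CPM (148 to 158) in IR, a log2 ratio of 5.31 (4.98 to 5.67) that was larger than that of 99.9% of the genes tested in this class. Cells with Tnc were a minority: 35 of 3429 fibroblast-like cells in sham and 378 of 1469 in IR held a UMI, and after thinning 0.0886% and 8.15%. The 10% of IR cells with the highest counts held 83.7% of the UMIs. No other class of at least 50 cells passed 23.3 CPM, the level of endothelial-like cells in IR, which rested on 17 UMIs. Unclassed IR cells with too few markers (219 cells) had 445 CPM and held 16.2% of Tnc UMIs.

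Periostin (Postn) cross-links collagen and marks activated fibroblasts in the healing heart. Among classes of at least 50 cells it was highest in pericyte-like cells in sham, at 315 CPM (282 to 350), against 67.2 CPM (63.5 to 70.9) in fibroblast-like cells. In IR the levels were 500.2 CPM (435 to 573) and 288 CPM (281 to 295), with pericyte-like cells again first among these classes. Schwann-like cells, too few to be ranked, stood above both in each library. The fibroblast-like level was 4.28-fold higher in IR, a log2 ratio of 2.10 (2.01 to 2.19), and the pericyte-like level 1.59-fold, with an interval of the log2 ratio from 0.41 to 0.92. Smooth-muscle-like cells stayed at 16.2 CPM and 15.8 CPM, from 15 and 11 UMIs. Postn was thus found in pericyte-like rather than smooth-muscle-like mural cells in both libraries.

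The distribution of Postn over cells also differed between these classes. In IR, 422 of 1469 fibroblast-like cells held a UMI and the 10% of cells with the highest counts held 85.5% of the UMIs. Among pericyte-like cells 67 of 103 held a UMI, and the highest 10% held 43.8%. Fibroblast-like cells held 62.0% of all Postn UMIs in sham and 85.3% in IR, and pericyte-like cells 16.9% and 2.82%. Endothelial-like cells had 82.4 CPM in sham, from 101 UMIs in 15 of 263 cells, and 12.3 CPM in IR, from 9 UMIs.

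Osteopontin (Spp1) is a secreted phosphoprotein that binds integrins and CD44 and is made by macrophages in injured heart. It was rare in sham, with 720 UMIs in the library, and reached 28811 UMIs in IR. Neutrophil-like cells had 43.0 CPM (27.0 to 65.1) in sham and 900 CPM (883 to 917) in IR, and monocyte-like cells 19.4 CPM (14.5 to 25.4) and 729 CPM (714 to 744). These were the highest classes in IR, with log2 ratios of 4.39 (3.79 to 5.06) and 5.23 (4.84 to 5.65). The monocyte-like ratio was 3.20 with the looser and 5.87 with the stricter marker gate. In IR, 715 of 2447 neutrophil-like and 344 of 1004 monocyte-like cells held a UMI. The highest 10% of the cells held 88.1% and 89.7% of the UMIs, so that most cells of either class had none or few.

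Resident-macrophage-like cells had 12.5 CPM of Spp1 in sham and 194 CPM in IR, where 1 cell held 29.5% of the UMIs. After thinning, the share with a UMI in IR was 17.6% (16.1 to 19.2) of neutrophil-like, 14.6% (12.4 to 16.9) of monocyte-like and 4.17% (2.95 to 5.70) of resident-macrophage-like cells, against 2.70% (1.61 to 4.24) of B-cell-like cells. The last 2 intervals overlap. Unclassed sham cells with resident macrophage and monocyte markers had 89.1 CPM and held 40.4% of the sham UMIs, and the 101 such cells in IR had 1144 CPM. Fibroblast-like cells had 1.53 CPM and 15.2 CPM, and the IR level lay below the 25.7 CPM of B-cell-like cells. The part of free RNA in the fibroblast-like level was not tested. Pericyte-like cells held 1 UMI in sham and 22 in IR, of which 1 cell held 54.5%. In IR, neutrophil-like cells held 38.3% and monocyte-like cells 31.6% of all Spp1 UMIs.

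**Figure D3:**
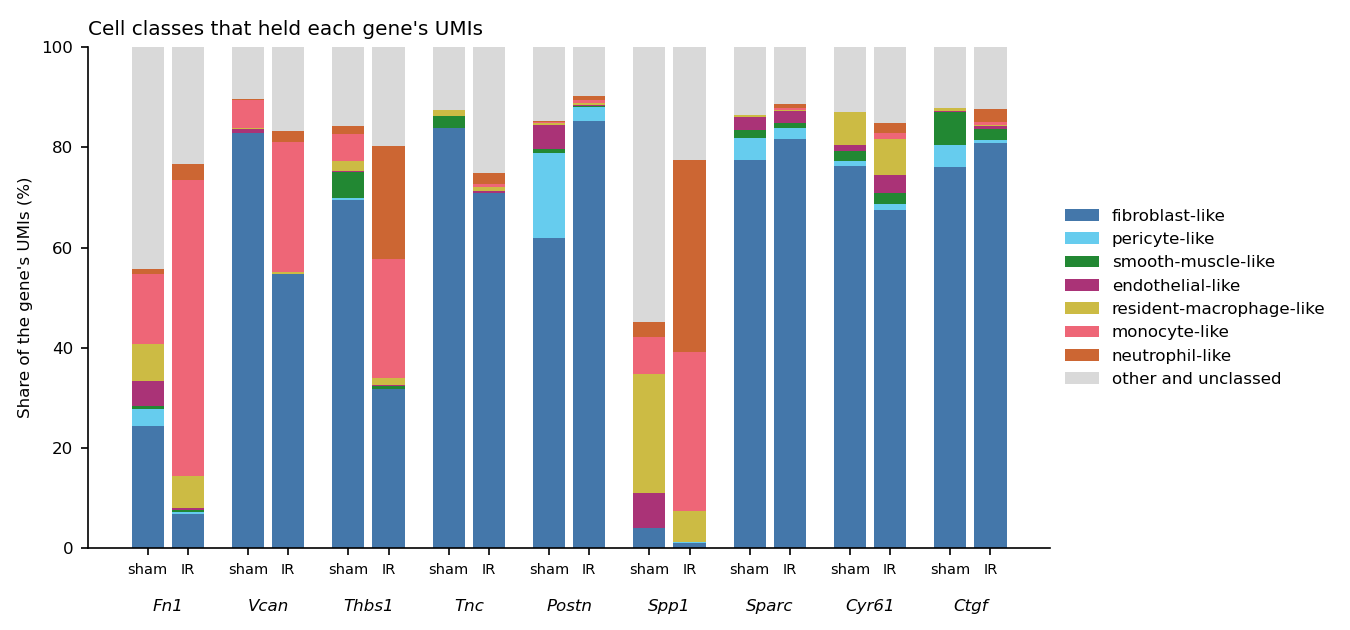
Share (%) of each gene's UMIs in the kept cells that was held by each class, in sham and IR; grey holds other classes and unclassed cells. Fibroblast-like cells held 69.6% of Thbs1 in sham and 31.7% in IR, and monocyte-like cells 13.8% and 59.1% of Fn1.

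SPARC (Sparc) binds collagen and assists its assembly. Its log2 ratio stayed between -0.47 and 0.41 in fibroblast-like, pericyte-like, smooth-muscle-like and endothelial-like cells. Fibroblast-like cells had 2764 CPM (2740 to 2787) in sham and 2141 CPM (2122 to 2161) in IR, a log2 ratio of -0.37 (-0.39 to -0.35). Pericyte-like cells had 2689.9 CPM and 2970.4 CPM, and in sham their interval overlapped that of fibroblast-like cells. Smooth-muscle-like cells had 1042 CPM and 751 CPM, and endothelial-like cells 1464 CPM and 1945 CPM. A Sparc UMI was found in 3385 of the 3429 sham fibroblast-like cells. Monocyte-like and resident-macrophage-like cells had 13.5 to 18.3 CPM, near the 26.3 CPM and 16.6 CPM of B-cell-like cells.

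Neutrophil-like cells had 23.5 CPM of Sparc in sham, from 12 UMIs, and 41.3 CPM in IR (37.8 to 45.1), above the B-cell-like interval. Summed fibroblast markers in neutrophil-like cells moved with it, from 147 CPM in sham to 319 CPM in IR, with 10 of 10 markers found in both, while they were 142 CPM and 131 CPM in B-cell-like cells. Their part in the stromal genes of neutrophil-like cells was not tested.

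CYR61 and CTGF belong to the CCN family, which bind integrins and heparan sulfate; both genes are textbook targets of YAP, and Ctgf also of TGF-beta. In fibroblast-like cells the pair went opposite ways. Cyr61 was 689 CPM (677 to 701) in sham and 357 CPM (349 to 365) in IR, a log2 ratio of -0.95 (-0.99 to -0.91), just short of 2-fold. Ctgf was 404 CPM (395 to 413) in sham and 1817 CPM (1799 to 1835) in IR, a log2 ratio of 2.17 (2.13 to 2.20). The Cyr61 ratio stayed below 0 under all 11 alternatives, from -1.06 to -0.39, and that of Ctgf between 1.91 and 2.19. Fibroblast-like cells held 76.3% and 67.6% of Cyr61 UMIs and 76.1% and 80.9% of Ctgf UMIs.

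In smooth-muscle-like cells Cyr61 was 343 CPM and 359 CPM, and Ctgf 707 CPM (653 to 763) and 1565 CPM (1474 to 1661). The Ctgf ratio there fell below 2-fold under the stricter mitochondrial limit and the stricter marker gate. In pericyte-like cells both were higher in IR by less than 2-fold, Cyr61 from 161 to 293 CPM and Ctgf from 403 to 641 CPM. The Cyr61 log2 ratio there was -0.20 with the limit on genes per cell, 1.23 with the mitochondrial limit and 1.30 with the stricter gate, and 1 IR cell held 20.3% of the Cyr61 and 23.0% of the Ctgf UMIs. In endothelial-like cells Cyr61 was 160 CPM in sham and 592 CPM in IR and Ctgf 18.8 CPM and 367 CPM, but 1 of the 93 IR cells held 48.7% of Cyr61 and 73.9% of Ctgf UMIs. These endothelial levels therefore rest largely on 1 cell.

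In myeloid cells the CCN genes were low. Resident-macrophage-like cells had 83.5 CPM of Cyr61 in sham (78.7 to 88.5) and 88.6 CPM in IR (82.7 to 94.9), above the 10.5 CPM and 4.16 CPM of B-cell-like cells and with at most 4.13% of the UMIs in 1 cell. This was the highest of the 3 myeloid levels of Cyr61 in either library, and the interval of its log2 ratio ran from -0.05 to 0.22. Monocyte-like cells had 5.49 CPM and 11.1 CPM, with 46.8% of the IR UMIs in 1 cell. Neutrophil-like cells had 7.82 CPM of Cyr61 in sham, from 4 UMIs, and 20.6 CPM in IR, with 26.9% of the UMIs in 1 cell. Ctgf in monocyte-like cells was 1.83 CPM and 26.7 CPM, with 23.1% of the IR UMIs in 1 cell. The thinned share of monocyte-like cells in IR with a Ctgf UMI was 1.81% (1.08 to 2.84), overlapping that of B-cell-like cells. Ctgf in neutrophil-like cells was 0 of 511480 UMIs in sham and 1264 UMIs in IR (103 CPM), at least 17.6-fold higher against a limit of 3 UMIs, and 20.7% of the IR UMIs were in 1 cell. It was found in 203 of the 2447 neutrophil-like cells in IR. As a log2 value the bound of 4.14 was 1.58 with thinning and 1.69 with the limit on genes per cell. After thinning, 2.41% of neutrophil-like cells in IR (1.82 to 3.12) had a Ctgf UMI against 1.95% of B-cell-like cells (1.04 to 3.31). By CPM their IR level of 103 (97.5 to 109) lay above the 18.1 CPM (13.4 to 24.0) of B-cell-like cells. The part of free RNA in it was not tested.

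**Figure D4:**
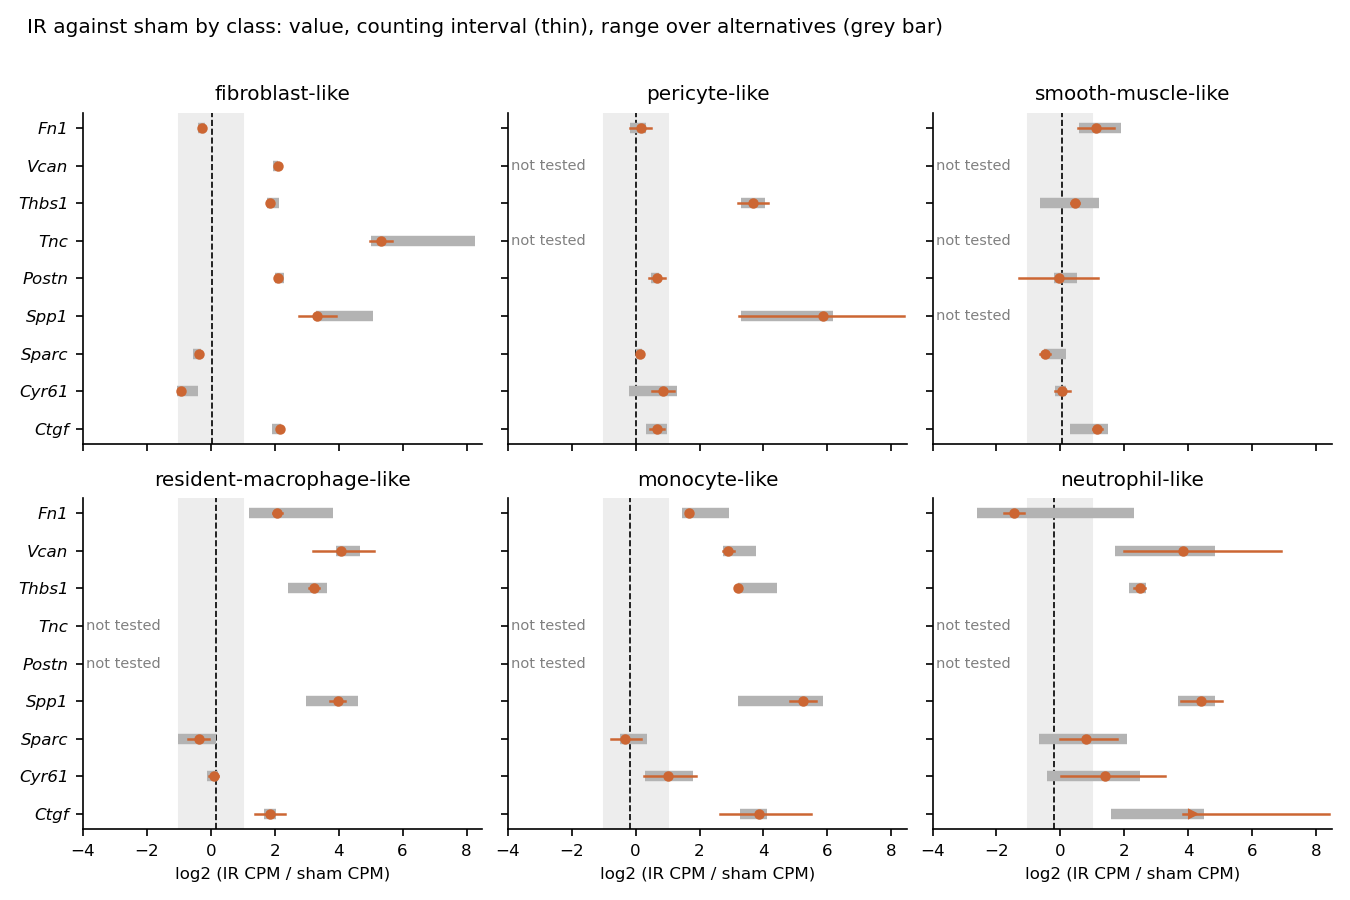
Log2 ratio of IR to sham CPM of each gene in 6 classes; points are the values, thin lines the counting intervals, grey bars the range over the alternative settings, the shaded band less than 2-fold, and the dashed line the median of all genes tested. In fibroblast-like cells Ctgf stood at 2.17 and Cyr61 at -0.95, and in neutrophil-like cells the grey bar of Fn1 crosses 0; the triangle marks a lower bound.

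Fibroblast-like cells were divided by the higher summed level of an adventitial list (such as Pi16 and Cd248) or an interstitial list (such as Tcf21 and Hsd11b1). The adventitial side held 827 cells in sham and 434 in IR, and the interstitial side 2467 and 990. The remaining 135 and 45 cells fell on neither side. Fn1, Postn, Vcan and Ctgf were higher on the adventitial side in both libraries, and Tnc and Cyr61 on the interstitial side. Postn, for example, was 129 CPM against 44.2 CPM in sham and 496 CPM against 184 CPM in IR, and Fn1 was 198 CPM against 70.9 CPM and 151 CPM against 55.9 CPM. The log2 ratio of IR to sham was alike on both sides for Vcan (1.98 and 2.07), Postn (1.94 and 2.06) and Ctgf (2.16 and 2.11). For Thbs1 the order of the sides differed between the libraries. Its sham level was lower on the adventitial side (470 CPM, 451 to 490.2) than on the interstitial side (705 CPM, 691 to 719), and its IR level higher (2816 CPM, 2777 to 2856, against 2065 CPM, 2042 to 2089). The log2 ratio was 2.58 (2.52 to 2.64) on the adventitial and 1.55 (1.52 to 1.58) on the interstitial side. The 45 IR cells on neither side had higher levels than both sides for some genes. They had 412 CPM of Tnc (344 to 490), 583 CPM of Postn (501 to 674), 2570 CPM of Ctgf and 3436 CPM of Thbs1. The Postn interval overlapped that of the adventitial side, and the other genes lay between the sides.

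**Figure D5:**
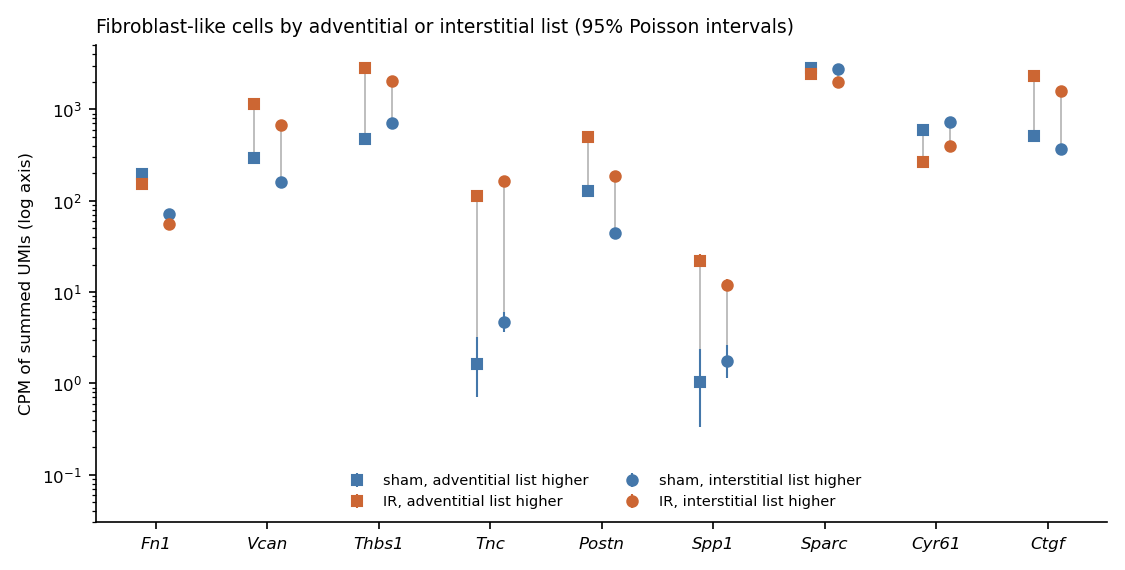
CPM (log axis) of each gene in fibroblast-like cells with the higher adventitial list (squares) or interstitial list (circles), in sham and IR, with 95% Poisson intervals and grey lines joining the libraries. Thbs1 in adventitial cells was below interstitial cells in sham (470 against 705 CPM) and above them in IR (2816 against 2065 CPM).

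Pairs of genes in the same cells were described after thinning to 1000 UMIs. In IR fibroblast-like cells, Thbs1 was found in 71.9% (68.3 to 75.3) of the 665 cells with a Ctgf UMI and in 41.6% (38.1 to 45.1) of the 796 without. Cyr61 and Ctgf, whose levels went opposite ways between the libraries, met in the same cells in both: Cyr61 was in 42.7% of sham cells with Ctgf and 28.5% of those without, and in 23.5% and 15.8% in IR. In IR monocyte-like cells, Thbs1 was in 86.9% (80.3 to 91.9) of the 145 cells with Spp1 and in 63.8% (60.4 to 67.0) of the others. The same pair in neutrophil-like cells gave 68.3% and 55.1%. Fn1 was in 63.6% of IR monocyte-like cells with Vcan and in 52.7% of the others. Vcan was in 53.1% (44.6 to 61.4) of IR monocyte-like cells with Spp1 and in 41.4% (38.1 to 44.8) of the others, and these intervals overlap. In IR fibroblast-like cells, Postn was in 15.97% of the 119 cells with Tnc and in 10.2% of the others. Those intervals also overlap, so no meeting in the same cells is read from either pair. Cells of 1 library are not replicates, and these shares describe the cells counted.

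Immediate-early genes are transcription factors and feedback genes that respond within minutes to growth factors or stress. In fibroblast-like cells 9 of 12 were at least 2-fold lower in IR and none was higher, against 10.9% lower and 10.5% higher of all genes. Their median log2 ratio was -1.22. Fos was 4248 CPM in sham and 1286 CPM in IR, Egr1 3713 CPM and 1385 CPM, Atf3 412 CPM and 141 CPM, and Nr4a1 414 CPM and 166 CPM. The study itself reported the opposite direction for Atf3, with more of its mRNA in cardiac fibroblasts sorted after IR. The reason for this difference was not tested. Cyr61, itself a known immediate-early gene, was lower beside these genes in the fibroblast-like cells counted here. In pericyte-like and monocyte-like cells 1 of 12 was higher, in both Ier3, and none lower. Of all genes 8.34% and 9.41% were higher there, so nothing is read from these counts about the list. In smooth-muscle-like cells 2 of 12 were lower (Atf3 and Jun) and none higher, against 9.06% lower and 10.2% higher of all genes. None of 12 passed 2-fold in resident-macrophage-like cells, and in neutrophil-like cells 2 were higher (Ier3 and Egr1) and 3 lower, among them Fosb and Fos. Of all genes, 9.94% were higher and 5.71% lower in resident-macrophage-like cells, and 14.7% and 18.3% in neutrophil-like cells.

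Partners of the provisional matrix were a list of hyaluronan synthases, cross-linkers, plasminogen activation genes and versican-cleaving proteases, and its counts stand beside the shares of all genes given for each class. Of the genes tested, 5 of 15 were higher and 1 lower in fibroblast-like cells, 8 of 12 and 1 in pericyte-like cells, 8 of 13 and 2 in smooth-muscle-like cells, 6 of 7 and none in resident-macrophage-like cells, 4 of 6 and 1 in monocyte-like cells, and 5 of 7 and none in neutrophil-like cells. In fibroblast-like cells the urokinase receptor Plaur was 18.1 CPM and 253 CPM, the prothrombinase Fgl2 96.5 CPM and 631 CPM, and the hyaluronan synthase Has1 23.8 CPM and 109 CPM. In mural cells the versican-cleaving protease Adamts4 was prominent, at 15.4 CPM and 226 CPM in pericyte-like cells and 29.1 CPM and 455 CPM in smooth-muscle-like cells. Tnfaip6, which remodels hyaluronan, had log2 ratios of 2.46 and 3.06 there, from 11 and 23 UMIs and from 4 and 25 UMIs. In monocyte-like cells the fibrin cross-linker F13a1 was 178 CPM and 914 CPM, and in resident-macrophage-like cells the transglutaminase Tgm2 was 3.30 CPM and 44.5 CPM.

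Among receptors of these proteins, 4 of 10 tested were higher and 1 lower in fibroblast-like cells, 2 of 11 and 1 in pericyte-like cells, 3 of 13 and 1 in smooth-muscle-like cells, 4 of 13 and 2 in resident-macrophage-like cells, 4 of 12 and 2 in monocyte-like cells, and 2 of 10 and 1 in neutrophil-like cells. Of all genes, in the same order of classes, 10.5%, 8.34%, 10.2%, 9.94%, 9.41% and 14.7% were higher. The shares lower were 10.9%, 9.7%, 9.06%, 5.71%, 15.7% and 18.3%. Nothing is read about the list from counts near these shares, such as those of neutrophil-like cells. Cd44, which binds hyaluronan and osteopontin, had log2 ratios of 3.02 in fibroblast-like, 3.27 in pericyte-like, 3.52 in smooth-muscle-like, 1.59 in monocyte-like and 1.13 in neutrophil-like cells. The pericyte-like ratio rested on 6 and 22 UMIs (1.92 to 4.86) and the smooth-muscle-like ratio on 5 and 43 UMIs (2.18 to 5.21). Itga5, part of the fibronectin receptor, was 57.5 CPM and 363 CPM in fibroblast-like cells and 16.5 CPM and 97.7 CPM in monocyte-like cells. The syndecan Sdc4, a co-receptor for fibronectin, was 180 CPM and 1372 CPM in fibroblast-like cells and 17.9 CPM and 852 CPM in monocyte-like cells. Cd36, a thrombospondin receptor, was 137 CPM and 778 CPM in resident-macrophage-like cells. Among the lower genes, Itga8 was 164 CPM and 31.6 CPM in smooth-muscle-like cells.

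Among relatives of the 9 genes, 2 of 17 tested were higher and 2 lower in fibroblast-like cells, with a median log2 ratio of -0.38. These shares are near the 10.5% higher and 10.9% lower of all genes, so nothing is read from them about the list. The higher ones were Nov, a CCN gene (27.0 CPM and 74.8 CPM), and Thbs4 (8.96 CPM and 19.2 CPM). The lower ones were Fbln1, a fibulin (887 CPM and 402 CPM), and Comp, a thrombospondin (13.7 CPM and 4.31 CPM). Tgfbi was higher in resident-macrophage-like cells (393 CPM and 937 CPM) and monocyte-like cells (384 CPM and 1417 CPM). Counts in the other classes were 1 higher and 1 lower of 6 in pericyte-like, 1 and 2 of 8 in smooth-muscle-like, 1 and none of 2 in resident-macrophage-like, 3 and none of 4 in monocyte-like, and 2 and 1 of 7 in neutrophil-like cells. They stand beside the shares of all genes given for each class.

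Other YAP and TGF-beta targets, a list without Cyr61 and Ctgf, were higher for 4 of 11 genes and lower for none in fibroblast-like cells, with a median log2 ratio of 0.15. Timp1, an inhibitor of matrix metalloproteinases, was 123 CPM and 2505 CPM, Ankrd1 1.32 CPM and 15.0 CPM, and Smad7, a TGF-beta feedback inhibitor, 57.2 CPM and 126 CPM. The counts were 3 higher and 1 lower of 10 in pericyte-like, 3 and 2 of 10 in smooth-muscle-like, 4 and 1 of 9 in resident-macrophage-like, 5 and 1 of 8 in monocyte-like, and 5 and none of 8 in neutrophil-like cells. Of all genes, in fibroblast-like cells and then in this order, 10.5%, 8.34%, 10.2%, 9.94%, 9.41% and 14.7% were higher. The shares lower were 10.9%, 9.7%, 9.06%, 5.71%, 15.7% and 18.3%. Nothing is read about the list from counts near these shares. Timp1 was among the higher genes of all 6 classes. The receptor tyrosine kinase Axl was lower in monocyte-like cells, at 106 CPM and 12.8 CPM.

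Genes whose levels ran most alike over 20 points (10 classes in 2 libraries) were named by Pearson's r of log2(CPM + 10) among 6865 genes. Points of a library share its depth and points of a class its cell type, so r is a description. Sparc ran with Serpinh1, a collagen chaperone (r = 0.99), Postn with the protocadherin Pcdh19 (0.97), Cyr61 with the cytoskeletal linker Dst (0.96) and Ctgf with the interleukin-1 receptor Il1r1 (0.94). Spp1 ran with interleukin-1 alpha (Il1a, 0.93) and the receptor antagonist Il1rn (0.89), and Tnc with the growth factor Ereg (0.91) and with Angptl4 (0.90). For Vcan, Fn1 and Thbs1 the closest genes were Rhou (0.88), Ltbr (0.87) and Ptp4a1 (0.84). Among the 9 genes, Sparc and Cyr61 were closest (0.90), followed by Postn with Sparc and Sparc with Ctgf (both 0.84), whereas Spp1 and Sparc had a weak negative r (-0.31). The CCN pair had r = 0.82 over the classes, although its levels differed in opposite directions in fibroblast-like cells.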

How the data were processed

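Left ventricular cells of 4 sham and 4 IR samples were measured by droplet-based single-cell RNA sequencing. The authors aligned reads to mm10 with Cell Ranger (the matrix headers name version 3.1.0) and deposited UMI counts, whole numbers that are not normalized, as 1 pooled matrix per group. Barcodes name no sample, so no test between the groups was possible and no p-value was computed.

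Cells with at least 200 genes and at most 30% mitochondrial UMIs were kept. The upper limit of 2500 genes given in the study's methods was used as an alternative, since it left 9777 sham and 4880 IR cells, and 163 of 1469 IR fibroblast-like cells. A marker was present in a cell at 1 UMI or more and at least 200 CPM. A cell took the class with the highest share of its 10 markers present (at least 0.3), if the next class had at most 0.5 of that share; this rule, set after the cells had been seen, also set aside mixed doublets, for which no caller was run. It was not applied between pericyte and smooth muscle. Of 149 marker genes, 2 were missing from the matrices.

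UMIs were summed per class and library and given as CPM with exact Poisson intervals, log2 ratios with exact conditional intervals and shares of cells with exact binomial intervals (95%). A gene was tested at 10 CPM or more in a library and 20 UMIs or more over both, and was called higher or lower at 2-fold. A count of 0 was set to 3 UMIs to give a bound. Shares of cells were compared after thinning to 1000 UMIs, leaving out shallower cells. On simulated counts, the folds set were recovered. The adventitial or interstitial side of a cell needed at least 2 UMIs of the lists. The genes and lists were chosen with earlier results of these data known. From each list, up to 4 genes per class with the largest difference past 2-fold could be named, and for each of the 9 genes the 3 most alike genes, at 50 CPM or more in at least 1 point, over classes of 50 cells or more. Some genes that this rule names are not reported here. Itgam, with 2 entries under its symbol, was left out. Python 3.11.15, numpy 2.4.6, scipy 1.17.1, pandas 2.3.3 and matplotlib 3.10.9 were used.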

Additional observations from a re-analysis of the deposited data

How the results depend on the processing

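Alternatives were a limit of 2500 genes, a mitochondrial limit of 10%, a stricter (0.33) and a looser (0.75) marker gate, thinning, the mean of the CPM of cells, CPM without mitochondrial and hemoglobin UMIs, centering on the median gene, subtraction of the B-cell-like CPM, no filter on low counts and, chosen after seeing the data, leaving out 30 barcodes found in both libraries. Of 27 member and class pairs past 2-fold, 27 stayed past it in the same direction without mitochondrial and hemoglobin UMIs, with centering, without the filter and without shared barcodes, and 21 to 25 under the others; the rest were too low to test, below 2-fold or reversed. Fn1 in neutrophil-like cells reversed to 1.78 with the gene limit, 2.30 with the stricter gate and 0.16 with thinning (log2), and Cyr61 there to -0.42 with thinning.

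The number of genes at least 2-fold higher in pericyte-like cells was 1 with the gene limit or thinning and 4 without the filter. In smooth-muscle-like cells it was 0 with the mitochondrial limit, 1 with either marker gate and 4 without the filter, and in resident-macrophage-like cells 3 with the stricter gate or the B-cell-like CPM subtracted. The number lower was 1 with thinning in fibroblast-like cells (Cyr61, -1.06) and resident-macrophage-like cells (Sparc, -1.04), and 0 in neutrophil-like cells with the gene limit, the stricter gate, thinning or the mean of cells. The causes were not tested, except that fewer genes are tested after subtraction or thinning. No paired analysis was possible because the cells of each group came as 1 pooled matrix and carry no sample number.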

Other observations

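Schwann-like cells, too few for a comparison (36 in sham and 5 in IR), held Sparc in every cell. Their sham level was 9740 CPM from 751 UMIs, with at most 8.66% in 1 cell, and 20 of the 36 cells held Postn, at 843 CPM (651 to 1075) from 65 UMIs. The 5 cells in IR had 1721 CPM of Postn (1114 to 2541) from 25 UMIs. In IR, 219 unclassed cells with too few markers had 3899.9 CPM of Thbs1, 1283 CPM of Ctgf and 694 CPM of Spp1, and their class is not known.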
